A study of Mus musculus with 6 samples.

Results

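The genes described are 9 genes of ion transport in mural cells, the contractile cells of the vessel wall, chosen by name from the 32287 genes counted in each library: *Kcnj8*, *Abcc9*, *Kcnj2*, *Kcnma1*, *Kcnab1*, *Cacna1c*, *Ano1*, *Ryr2* and *Atp13a5*. All 9 were found in the count tables. The cells came from brain microvessels that had been pulled from digested cerebrum, 1 hemisphere a mouse, with magnetic beads against CD31, and were sequenced by droplet (10x) single-cell RNA-seq. There were 3 WT mice (C57BL/6J) and 3 mice labelled AppArcSwe, which carry a transgene for human amyloid precursor protein with the Arctic and Swedish mutations (ArcSwe below). All 6 were untreated males of 12 months, and each gave 1 library. The promoter that drives the transgene was not given in the sources used here.

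Mural cells set vessel width through their membrane potential. Potassium channels that open hyperpolarize the cell and let it relax, whereas chloride channels that open depolarize it, and depolarization opens voltage-gated calcium channels whose calcium drives contraction. Smooth muscle cells (SMC) wrap arteries, arterioles and large veins, and pericytes lie on capillaries, where the ATP-sensitive potassium (K-ATP) channel is a well known trait of brain pericytes.

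*Kcnj8* encodes the pore and *Abcc9* the sulphonylurea receptor subunit of the vascular K-ATP channel. The genes are neighbours on mouse chromosome 6, both on the minus strand, with *Kcnj8* at chr6:142564837-142571614, *Abcc9* at chr6:142587862-142702315 and 16.2 kb between them in the GRCm38 (mm10) annotation. The others lie at chr16:29231851-29378732 (*Atp13a5*, minus strand), chr7:144588549-144751974 (*Ano1*, minus), chr6:118587240-119196418 (*Cacna1c*, minus), chr14:23289431-24014491 (*Kcnma1*, minus), chr3:65109384-65378223 (*Kcnab1*, plus), chr13:11553102-12106945 (*Ryr2*, minus) and chr11:111066164-111076821 (*Kcnj2*, plus). All 9 are protein-coding. *Abcc9*, *Kcnma1*, *Kcnab1*, *Cacna1c* and *Ano1* overlap annotated genes on the opposite strand, and their counts are certain only as far as the counting kept strands apart.

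The 250 bases before the RefSeq start are printed for the 3 genes that were highest in pericytes and for 2 of the 3 that were highest in SMC, because members of each set changed together between the cell types. They are RefSeq sequences of GRCm38.p6, read on the strand of the gene, at chr6:142571615-142571864 for *Kcnj8*, chr6:142702275-142702524 for *Abcc9*, chr16:29378733-29378982 for *Atp13a5*, chr14:24004206-24004455 for *Kcnma1* and chr13:12106946-12107195 for *Ryr2*. The RefSeq start is not always the start of the span given above. The window of *Kcnma1* lies inside its span, as do that of *Ano1* and some of those of *Cacna1c* and *Kcnab1* searched below. Capitals mark the motifs searched for.
Kcnj8: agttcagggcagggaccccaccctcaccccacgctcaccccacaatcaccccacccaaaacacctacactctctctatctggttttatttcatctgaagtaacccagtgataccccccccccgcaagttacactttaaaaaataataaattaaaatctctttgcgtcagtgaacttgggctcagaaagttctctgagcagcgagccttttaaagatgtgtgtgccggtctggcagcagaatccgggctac
Abcc9: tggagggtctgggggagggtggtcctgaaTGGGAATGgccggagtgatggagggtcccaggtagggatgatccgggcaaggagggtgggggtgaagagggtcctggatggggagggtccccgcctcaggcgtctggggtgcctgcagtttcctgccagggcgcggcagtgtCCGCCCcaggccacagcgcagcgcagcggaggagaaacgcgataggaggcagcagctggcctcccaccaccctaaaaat
Atp13a5: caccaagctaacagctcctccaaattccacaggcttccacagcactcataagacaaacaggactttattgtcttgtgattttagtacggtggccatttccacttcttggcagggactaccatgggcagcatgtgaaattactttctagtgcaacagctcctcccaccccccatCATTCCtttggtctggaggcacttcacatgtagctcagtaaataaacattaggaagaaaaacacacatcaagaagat
Kcnma1: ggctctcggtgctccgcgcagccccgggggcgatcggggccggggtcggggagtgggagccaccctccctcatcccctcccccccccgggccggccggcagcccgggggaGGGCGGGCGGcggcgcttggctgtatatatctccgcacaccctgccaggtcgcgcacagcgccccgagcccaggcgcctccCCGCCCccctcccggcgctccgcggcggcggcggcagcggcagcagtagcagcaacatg
Ryr2: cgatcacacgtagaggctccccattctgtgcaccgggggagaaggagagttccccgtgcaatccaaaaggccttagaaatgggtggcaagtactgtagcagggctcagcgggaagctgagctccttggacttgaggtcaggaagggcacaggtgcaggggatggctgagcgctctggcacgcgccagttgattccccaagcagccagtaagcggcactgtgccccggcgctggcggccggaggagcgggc

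4 motifs were searched on both strands in 13 windows of the 9 genes, 3 windows each for *Kcnab1* and *Cacna1c* and 1 for each of the others. No window held a CArG box, the serum response factor motif of many contractile genes, which 1.47% of 32851 promoters of the same length held. GGGCGG, the GC box, was found 3 times before *Kcnma1*, with 2 of the matches overlapping, and once before *Abcc9*. It was also found 6 times in 1 window of *Cacna1c*, 4 times before *Ano1* and 2 times each before *Kcnj2* and in 1 window of *Kcnab1*, and 32.7% of all promoters hold it. TGGGAA, the core of the RBPJ motif of Notch signalling, was found before *Abcc9* and *Ano1* (21.6% of all promoters). CATTCC, the core of the TEAD motif, was found before *Abcc9* and *Atp13a5* (12.6% of all promoters), and in *Abcc9* its reverse strand match overlaps TGGGAA in 4 bases. The windows of the printed genes ran from 44.8% G and C before *Atp13a5* to 79.2% before *Kcnma1*, against a median of 52.4% over all promoters. A match here is a run of letters and nothing more.

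The 6 libraries held 49059 cells, of which 44112 passed the cell filters. Total UMI (unique molecule) counts ran from 26436229 to 59161203 a library, and 283 barcodes occurred in more than 1 library. Classes were found by clustering and named from fixed markers that contain none of the 9 genes, and the clustering left out the 9 genes and the other channel genes of the lists used below. This gave 24062 endothelial cells, 3088 SMC, 350 pericytes and 7101 microglia. Pericytes were few, with 29, 20 and 81 cells in WT and 32, 17 and 171 in ArcSwe mice, and the mean levels of pericytes leave out ArcSwe replicate 2 with its 17 cells, whereas the tests use all 6 mice. SMC numbered 465, 371 and 662 in WT and 500, 175 and 915 in ArcSwe mice. All 10 pericyte markers were present in the pericyte class, among them *Vtn*, *Higd1b* and *Art3*, but so were 4 of 10 SMC markers and 2 of 8 endothelial markers. Smaller mural groups were 182 cells between pericytes and SMC (intermediate mural cells) and 70 cells with pial vein SMC markers. The summed endothelial markers reached 851 to 976 CPM in WT and 608 to 1266 CPM in ArcSwe pericytes, against 17244 to 19640 CPM in endothelial cells over all mice, and their part in the results was not tested. Mouse *App* counts overlapped between genotypes (1674 to 1815 CPM in WT and 1640 to 1831 CPM in ArcSwe endothelial cells), so they do not check the transgene labels. Levels are CPM (counts scaled to a common library total) of the UMIs summed over a mouse's cells of a class, and they are compared between classes and never between genes, since 3′ counts also depend on the transcript.

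The 9 genes fell into 3 patterns between pericytes and SMC. *Kcnj8*, *Abcc9* and *Atp13a5* were higher in pericytes by 70.0-fold to 120-fold, and *Ano1* by 1.89-fold. *Kcnma1*, *Kcnab1* and *Ryr2* were the reverse, with 1, 10 and 1 UMIs in all 350 pericytes against 5362, 18561 and 2705 in SMC. *Cacna1c* was high in both, and *Kcnj2* was higher in endothelial cells and microglia than in either. In the edgeR test with mouse as a block, 4 of the 8 genes tested were higher in pericytes, against 17% of 8091 genes, and 3 were higher in SMC, against 22.5%. Since classes were found in the same cells, these tests measure the spread between mice for cells so classed. *Atp13a5*, *Abcc9* and *Kcnj8* were themselves among the 10 leading genes of the pericyte cluster.

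*Kcnj8* reached 1856, 1108 and 1063 CPM in the pericytes of the 3 WT mice and 1401, 1342 and 1337 CPM in those of the 3 ArcSwe mice. In SMC it was at 4.04, 5.39 and 1.89 CPM in WT and 24.4, 36.5 and 1.43 CPM in ArcSwe mice. The classes did not overlap in any mouse, and the lowest pericyte value lay far above the highest SMC value. The log2 fold change was 6.90 (SE 0.23, adjusted p = 1.1e-40, edgeR). Endothelial cells held 37 *Kcnj8* UMIs in all, a mean of 0.375 CPM ± 0.262 (SD, n = 6).

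*Abcc9* followed the same course, with 1706, 1880 and 1879 CPM in WT and 1538, 1430 and 1657 CPM in ArcSwe pericytes. Its SMC values were 7.64, 15.1 and 6.81 CPM in WT and 26.9, 29.1 and 3.72 CPM in ArcSwe mice. Both subunits of the K-ATP channel were thus low in SMC in the same mice, and in both ArcSwe replicates 1 and 2 were highest. The log2 fold change of *Abcc9* was 6.77 (SE 0.19, adjusted p = 8.8e-45, edgeR). *Abcc9* was at 0.768 CPM ± 0.512 (SD, n = 6) in endothelial cells.

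*Atp13a5*, a P-type transport ATPase and no channel, had a UMI in 97.9% ± 2.8 of pericytes (SD, n = 5). It was at 3218, 2988 and 3713 CPM in WT and 2517, 3849 and 2710 CPM in ArcSwe pericytes. In SMC it was at 31.0, 24.2 and 40.8 CPM in WT and 25.6, 52.3 and 49.0 CPM in ArcSwe mice, so that it was a pericyte gene with a low but regular count in SMC. The log2 fold change was 6.13 (SE 0.14, adjusted p = 7.6e-50, edgeR), higher in 6 of 6 mice.

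*Ano1*, the calcium-activated chloride channel of vascular muscle, differed less between the classes. Pericytes held 762, 574 and 914 CPM in WT and 806, 424 and 551 CPM in ArcSwe mice. SMC held 279, 273 and 333 CPM in WT and 257, 357 and 281 CPM in ArcSwe mice. Every mouse had more in pericytes, the closest pair being that of ArcSwe replicate 2. The log2 fold change was 0.92 (SE 0.13, adjusted p = 4.2e-09, edgeR). Genes longer than 100 kb, *Ano1* (163 kb) among them, took a larger share of UMIs in pericytes than in SMC in every mouse. The part of this was not tested.

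*Cacna1c*, the pore subunit of the L-type calcium channel that triggers contraction, stood at 869, 1009 and 1707 CPM in WT and 1054, 1624 and 1038 CPM in ArcSwe pericytes. Its SMC values were 654, 695 and 1251 CPM in WT and 654, 805 and 893 CPM in ArcSwe mice. Pericytes were higher in 6 of 6 mice on this scale, but the ranges overlapped and the change did not pass the test. The log2 fold change was 0.25 (95% confidence interval 0.01 to 0.48, adjusted p = 0.086, edgeR). The call depended on the setting. It passed when mural cells with endothelial or microglial UMIs were left out (0.55, adjusted p = 0.0011, edgeR), which left 7 to 55 pericytes a mouse. It also passed when SMC sums were thinned to the pericyte totals (0.44, adjusted p = 0.0027, edgeR) and without ArcSwe replicate 3 (0.35, adjusted p = 0.029, edgeR). In WT replicate 3 and ArcSwe replicate 2, the 2 mice with the most *Cacna1c* in pericytes, genes longer than 100 kb took 28.8% and 26.4% of the pericyte UMIs, against 20.6% to 22.1% in the other mice. In SMC that share was 15.1% to 20.6%, below that of the pericytes of the same mouse in each of the 6. The part of these shares in the values and in the difference between the classes was not tested.

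*Kcnma1* encodes the pore of the large conductance calcium-activated (BK) potassium channel, which opens to calcium sparks and opposes constriction. SMC held 328, 350 and 551 CPM in WT and 355, 308 and 375 CPM in ArcSwe mice. The pericytes of WT replicate 3 held its only pericyte UMI. Over all mice SMC had 303 times the pericyte level, with a counting interval of 54.3 to 11966 (95%, exact), and the adjusted p was 4.4e-31 (edgeR).

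*Kcnab1*, the beta subunit of voltage-gated potassium channels, was at 915, 990 and 2039 CPM in the SMC of WT mice and at 1133, 1186 and 1480 CPM in those of ArcSwe mice. In pericytes it was at 0, 0 and 11.5 CPM in WT and 0, 53.0 and 15.4 CPM in ArcSwe mice, the value of 53.0 being 3 UMIs. Its log2 fold change was −7.06 (SE 0.26, adjusted p = 7.8e-38, edgeR).

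*Ryr2*, the ryanodine receptor that releases calcium from the store as sparks, was at 156, 167 and 248 CPM in WT and 167, 182 and 223 CPM in ArcSwe SMC. A single UMI was found in pericytes, again in WT replicate 3. SMC had 153 times the pericyte level (95% counting interval 27.4 to 6038, exact; edgeR adjusted p = 4.7e-25). The BK pore, the potassium channel beta subunit and the spark channel were counted together in the SMC of all 6 mice, and in pericytes they were at 0 in WT replicates 1 and 2 and ArcSwe replicate 1. WT replicate 3 was highest of the 6 mice in SMC for all 3 of them and for *Cacna1c*, and in its SMC genes over 100 kb took 20.6% of UMIs, against 15.1% to 17.4% in the other mice; the part of this was not tested.

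*Kcnj2*, an inward rectifier that opens to potassium outside the cell, was at 12.8, 10.9 and 15.3 CPM in WT and 12.3, 13.5 and 13.8 CPM in ArcSwe endothelial cells. SMC held 3.15, 2.69 and 1.89 CPM in WT and 2.52, 3.32 and 1.43 CPM in ArcSwe mice, all below every endothelial value. The log2 fold change of SMC over endothelial cells was −2.33 (SE 0.22, adjusted p = 5.3e-10, edgeR). In pericytes there were 0 of 779737 UMIs, which allows up to 3.85 CPM (3 counts). Pericytes were therefore at least 3.39-fold lower than endothelial cells (edgeR adjusted p = 0.00026), while a difference from SMC was not detectable at this depth. Intervals and floors cover counting error only.

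**Figure D1:**
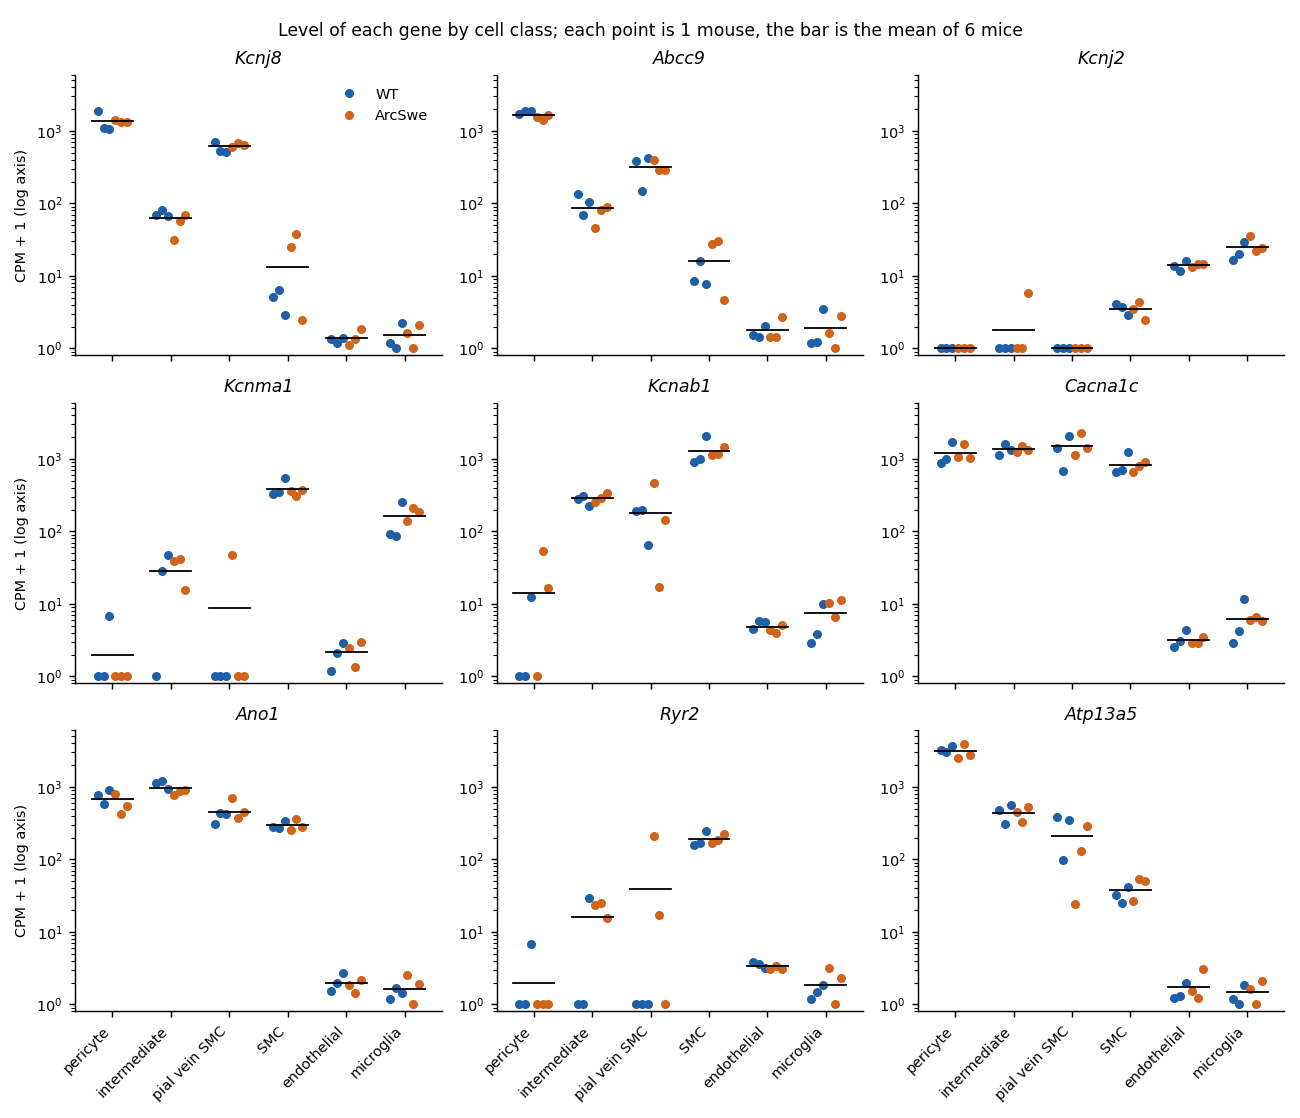
CPM plus 1 on a log axis for each of the 9 genes in 6 cell classes, with 1 point a mouse (WT blue, ArcSwe orange) and a bar at the mean of the 6 mice, the mouse with 17 pericytes included. *Kcnj8*, *Abcc9* and *Atp13a5* are highest in pericytes, *Kcnma1*, *Kcnab1* and *Ryr2* in SMC, *Cacna1c* and *Ano1* are high in all 4 mural classes, and *Kcnj2* lies at 10.9 to 15.3 CPM in endothelial cells against 0 in pericytes.

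The share of cells with a UMI was compared after each cell had been thinned at random to 1000 UMIs, since the median was 2296 UMIs a cell in pericytes, 5058 in SMC and 3738 in endothelial cells. This left out 27 pericytes, 48 SMC and 647 endothelial cells. *Kcnj8* was then found in 62.1% ± 9.7 of pericytes (SD, 4 mice with 20 cells or more), 0.700% ± 0.891 of SMC (6 mice) and 0.0205% ± 0.0186 of endothelial cells. Without thinning the shares were 83.7%, 1.48% and 0.139%. *Kcnma1* was found in 26.0% ± 5.2 of SMC, in none of the 323 pericytes and in 0.111% ± 0.092 of endothelial cells, and without thinning in 66.4%, 0.247% and 0.431%. *Atp13a5* was found in 83.7% ± 14.1 of thinned pericytes and 2.32% ± 0.85 of thinned SMC, *Abcc9* in 73.5% ± 4.1 and 0.922% ± 0.714, and *Ano1* in 42.8% ± 8.6 and 19.0% ± 2.4. *Kcnab1* was found in 0.333% ± 0.667 of thinned pericytes and 57.3% ± 8.3 of thinned SMC, and *Ryr2* in none and 13.1% ± 3.3. For *Kcnma1* the pericyte share rests on 1 UMI before thinning, too few to order it against the endothelial share. Whether it was background was not tested. *Cacna1c* was found in 57.7% ± 8.4 of thinned pericytes and 46.6% ± 9.4 of thinned SMC. Thinned to 2000 UMIs, which left out 128 pericytes and 173 SMC, the shares were 77.1% ± 6.7 and 68.9% ± 7.2. Pericytes thus had the higher mean at both matched depths, but the spreads overlapped. The pericyte means are over 4 mice and the SMC means over 6, and the shares were not compared within mice. Without thinning, where SMC were deeper, the shares were 80.5% and 89.3%, and no order is read from these.

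Mural cells between and beside the main classes held intermediate levels. In the intermediate mural cells *Kcnj8* was at 57.5 CPM ± 16.1 and *Abcc9* at 90.3 CPM ± 33.2 (SD, the 5 mice with 20 cells or more), and both were above SMC and below pericytes in each of the 6 mice. *Atp13a5* was at 468 CPM ± 88, likewise between the classes. *Kcnab1* at 278 CPM ± 42 lay between them from the other side, whereas *Kcnma1* at 27.8 CPM ± 19.8 and *Ryr2* at 17.9 CPM ± 11.2 were closer to pericytes. *Ano1* was not intermediate, at 927 CPM ± 137 and above pericytes in 5 of 6 mice, and it was among the 10 leading genes of this cluster. *Cacna1c* stood at 1303 CPM ± 143, within the pericyte range.

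The 70 pial vein SMC held RNA of both K-ATP channel genes. These cells showed 7 of 10 SMC markers and 9 of 10 pericyte markers. *Kcnj8* reached 714, 536 and 513 CPM in WT and 605, 681 and 644 CPM in ArcSwe mice, each value resting on 7 to 16 cells. *Abcc9* reached 384, 146 and 417 CPM in WT and 395, 292 and 286 CPM in ArcSwe mice. Both were thus above the SMC class as a whole and below pericytes in every mouse. They were not above all SMC. In the SMC subcluster marked by *Steap4*, described below, *Kcnj8* ran from 0 to 869 CPM and *Abcc9* from 172 to 993 CPM over the mice, which overlaps the pial vein values. *Kcnma1* had 2 UMIs and *Ryr2* 10 UMIs in these cells, 9 of the latter from ArcSwe replicate 1. *Cacna1c* ran from 682 to 2271 CPM and overlapped both main classes.

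SMC were not uniform. The low *Kcnj8* and *Abcc9* counts of SMC came from 1 subcluster of 68 cells marked by *Steap4*, which held 90.8% of the 131 *Kcnj8* UMIs and 97.1% of the 175 *Abcc9* UMIs of SMC. These cells showed 8 of 10 SMC markers and 9 of 10 pericyte markers, against 2 to 7 pericyte markers in the other 8 SMC subclusters. They held 0 UMIs of *Atp13a5*, as did the SMC subcluster led by *Pappa2*. Without the 68 cells the log2 fold change of pericytes over SMC was 10.1 for *Kcnj8* and 11.5 for *Abcc9*. In the other 8 SMC subclusters *Kcnj8* was at a mean of 0 to 4.86 CPM. The subcluster was singled out after its values had been seen and is described without a test.

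The 3 SMC subclusters with the least *Ano1* (31.7 to 64.2 CPM) were the 3 with the most *Kcnma1* (524 to 982 CPM) and the most *Ryr2* (303 to 577 CPM). *Ano1* was at 714 CPM ± 74 in the subcluster led by *Pappa2*, beside 672 CPM ± 185 in pericytes (SD over mice with 10 cells or more, here and below). It was at 52.6 CPM ± 29.1 in the subcluster led by *Ryr2*, *Sorbs2os* and *Kcnma1*. *Kcnma1* was at 66.5 CPM ± 31.3 in the *Pappa2* subcluster and 982 CPM ± 488 in the *Ryr2* subcluster, where it was among the 10 leading genes. The *Ryr2* subcluster had medians of 3641 UMIs and 6.10% mitochondrial UMIs, against 5163 and 2.85% in the *Pappa2* subcluster. The subclusters led by *Crispld2* and *Pcdh7*, also low in *Ano1*, had 5747 and 6933 UMIs with 4.51% and 5.31%. The part of depth and RNA quality in these levels was not tested. *Ryr2* was lowest where *Atp13a5* was highest among SMC, at 73.8 CPM ± 12.4 with *Atp13a5* at 111 CPM ± 33 in the subcluster led by *Mlf1* and *Pex5l*. *Kcnab1* ran from 910 CPM ± 174 to 2236 CPM ± 518 over the 9 subclusters. WT replicate 3 stood apart in its mix of subclusters, giving 49.4% of the cells of the subcluster led by *Ryr2*, 56.6% of those of the largest SMC subcluster and 0.741% of those of the next largest.

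**Figure D2:**
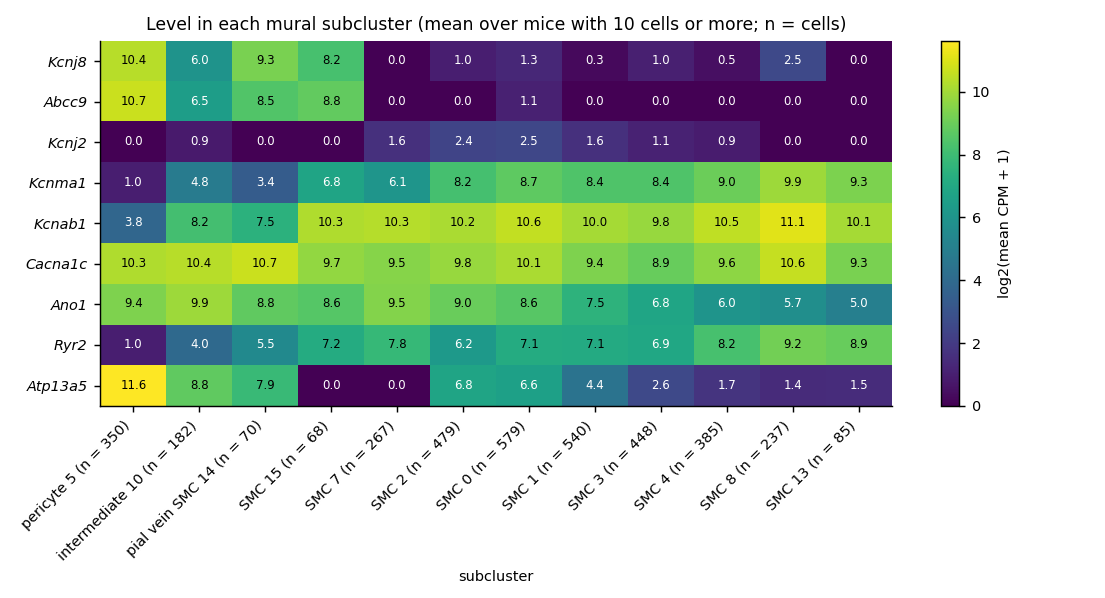
Level of the 9 genes in the mural subclusters as log2 of mean CPM plus 1 over mice with 10 cells or more (color and number), with the number of cells in each column label, to be read along a row. Mean *Kcnj8* is at 0 to 4.86 CPM in all SMC subclusters but number 15, where it is at 299.9 CPM and *Abcc9* at 456 CPM over the 3 mice with 10 cells, and *Ano1* runs from 714 CPM in SMC 7 to 31.7 CPM in SMC 13.

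The other channel genes of mural cells were counted by role. Of 219 genes on 9 lists by role, 78 were tested between pericytes and SMC. 20 were higher in pericytes and 33 in SMC, with a median log2 fold change of −0.37 beside −0.05 over all genes tested. Over all 8091 genes 17% were called higher in pericytes and 22.5% in SMC, the shares against which the counts of each role are set, and no list was tested as a set. The median was the same with the 3 genes that had 0 UMIs in pericytes at their bound.

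Of inward rectifiers *Kcnj12* alone was tested (log2 fold change −0.62, SE 0.23, adjusted p = 0.022, edgeR), lower in pericytes in 4 of 6 mice, and of calcium-activated potassium channels *Kcnt2* (1.61, SE 0.28) was higher and *Kcnmb1* lower in pericytes. *Kcnj12* and *Kcnt2* were named after their values had been seen.

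Of voltage-gated potassium channel genes, 6 of 8 tested were higher in SMC and 0 in pericytes. *Kcna5* and *Kcna2*, pores of Kv1 channels to which the *Kcnab1* product binds, had 0 UMIs in pericytes and 954 and 355 in SMC. *Kcna2* was at least 6.68-fold lower in pericytes, and *Kcna5* was at 69.1 CPM in SMC where the pericyte counts allow up to 3.85 CPM. *Kcnip1*, a channel-interacting protein, had 2 UMIs in pericytes and was 12.1 times as high in SMC (95% counting interval 3.33 to 100.1). *Kcnmb1*, the beta subunit of the BK channel, was lower in pericytes by a smaller step than its pore gene, at 59.0 CPM against 117 CPM over all cells (log2 fold change −1.28, SE 0.22, adjusted p = 6.6e-07, edgeR). That call was lost when cells with RNA of other types were left out (−0.74, adjusted p = 0.072, edgeR), which left 7 to 55 pericytes a mouse. *Kcnk3*, a background potassium channel, had a log2 fold change of −2.08 (SE 0.22).

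Of voltage-gated calcium channel genes, 7 of 9 tested were higher in SMC and 1 in pericytes, while *Cacna1c* itself was not called. *Cacna1g*, a T-type pore, had 0 UMIs in pericytes and 638 in SMC, at least 12.0-fold lower. *Cacnb4*, a beta subunit, had 1 UMI in pericytes and was 66.9 times as high in SMC (95% counting interval 12.0 to 2646). The single gene higher in pericytes was *Rem1* (log2 fold change 3.94, SE 0.22), a small GTPase known to inhibit these channels.

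Of chloride channels and carriers, 6 of 13 tested genes were higher in pericytes and 1 in SMC. *Ano4*, a relative of *Ano1*, was at 407 CPM in pericytes and 2.25 CPM in SMC over all cells (log2 fold change 7.14, SE 0.26, adjusted p = 4.4e-38, edgeR). *Slc12a2*, the sodium, potassium and chloride cotransporter, rose by 3.39 (SE 0.13), and *Lrrc8b*, a volume-regulated anion channel subunit, by 3.94 (SE 0.32).

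Of calcium store genes, 4 of 16 were higher in pericytes and 6 in SMC. *Pln*, the inhibitor of the store pump, and *Jph2*, which joins the store to the surface membrane, went with *Ryr2*: *Pln* had 4 UMIs in pericytes and 20034 in SMC (log2 fold change −8.42, SE 0.29), and *Jph2* had 3 and 2507, a ratio of 47.2 (95% counting interval 16.1 to 229). *Itpr2*, a release channel gated by inositol trisphosphate, was higher in pericytes (3.69, SE 0.14), opposite to *Ryr2*.

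Among TRP and mechanosensitive channels 6 of 13 were higher in pericytes and 2 in SMC. *Trpc4*, a cation channel of receptor signalling, was higher in pericytes by 3.32 (SE 0.18). *Piezo1*, a stretch-gated channel, had 3 UMIs in pericytes and 348 in SMC, a ratio of 6.55 (95% counting interval 2.22 to 31.9). Of ATPases and exchangers, 2 of 15 were higher in pericytes, near the share over all genes, and 8 in SMC. *Atp1b1* and *Fxyd1*, subunits of the sodium pump, were lower in pericytes by −6.17 (SE 0.28) and −2.94 (SE 0.16), and *Slc8a2*, a sodium and calcium exchanger, by −3.23 (SE 0.52), on 4 pericyte UMIs. *Atp13a5* thus differed in direction from 8 of the 15 genes of the list of its role.

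**Figure D3:**
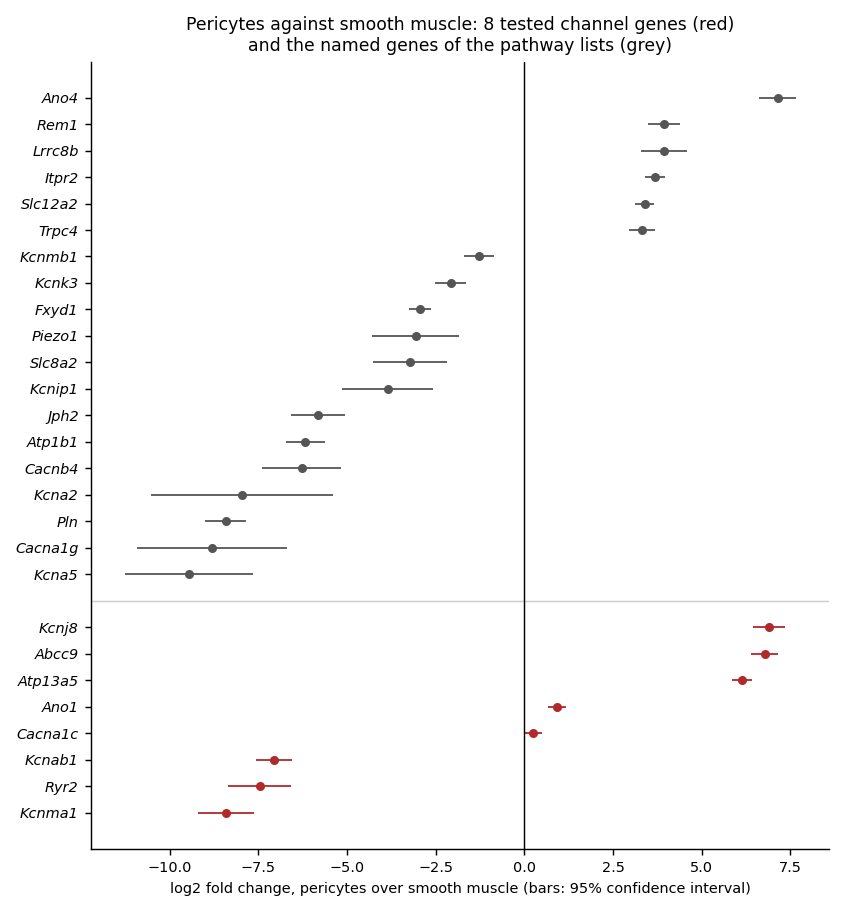
Fitted log2 fold change of pericytes over SMC (x axis) with 95% confidence intervals for the 8 genes tested (red) and the genes of the lists named here (grey). *Kcnj8*, *Abcc9* and *Atp13a5* lie at 6.90, 6.77 and 6.13 and *Cacna1c* at 0.25, and the fitted values of genes with 0 to 3 pericyte UMIs (*Kcna5*, *Cacna1g*, *Kcna2*, *Kcnma1*, *Ryr2*, *Cacnb4*, *Kcnip1*, *Jph2*, *Piezo1*) depend on the prior count of the fit.

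Against endothelial cells, 5 of the 9 genes were higher in pericytes, beside 16.7% of 11288 genes. These were *Kcnj8* (log2 fold change 11.5, SE 0.34), *Abcc9* (10.8, SE 0.26), *Atp13a5* (11.6, SE 0.19), *Ano1* (9.17, SE 0.20) and *Cacna1c* (8.81, SE 0.12). *Kcnma1* and *Ryr2* did not pass, nor did *Kcnab1* (1.37, SE 0.64, adjusted p = 0.086), which passed without WT replicate 2 (1.56, adjusted p = 0.035). SMC were higher than endothelial cells for 8 of the 9 genes, beside 36.6% of 11288 genes, and lower for *Kcnj2* alone, beside 40% lower in SMC. For *Kcnj8* and *Abcc9* the subcluster marked by *Steap4* gave 90.8% and 97.1% of the SMC UMIs. SMC without it were not tested against endothelial cells. In the other SMC subclusters mean *Abcc9* was at 0 to 1.08 CPM, beside 0.442 to 1.75 CPM over the endothelial clusters that were not fenestrated. *Kcnab1*, *Cacna1c*, *Kcnma1* and *Ano1* differed by 8.35 to 8.68 on the log2 scale, *Ryr2* by 6.49 (SE 0.10) and *Atp13a5* by 5.61 (SE 0.24). These comparisons share the cells of each class with one another.

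Outside the mural cells, *Kcnma1* and *Kcnj2* were counted in microglia. *Kcnma1* was at 91.6, 85.5 and 250.4 CPM in WT and 139, 211 and 184 CPM in ArcSwe microglia, which is below SMC in every mouse. In microglia, genes longer than 100 kb took 16.9%, 17.3% and 28.3% of UMIs in WT and 19.6%, 25.9% and 22.7% in ArcSwe mice. *Kcnab1*, more abundant in SMC, was at 6.51 CPM ± 3.61 in the same microglia (SD, n = 6), and the summed SMC markers were at 60.7 to 438 CPM in WT and 66.0 to 420 CPM in ArcSwe microglia. By cluster, *Kcnma1* was at 93.5 CPM ± 29.2 where the median was 6512 UMIs a cell and 223 CPM ± 28 where it was 3736. In clusters with medians of 1263 and 1196 UMIs it was at 147 CPM ± 36 and 178 CPM ± 76 (SD over 3 to 6 mice). The study had removed a microglial cluster low in ribosomal and high in mitochondrial genes, and no such step was taken here. The parts of RNA from other cells, of the long gene share and of depth in the *Kcnma1* count were not tested. After thinning to 1000 UMIs 13.5% ± 4.2 of microglia held *Kcnma1* (5556 cells used, 1545 left out, median 1573 UMIs before thinning). *Kcnj2* was at 15.8, 19.3 and 28.2 CPM in WT and 35.0, 20.7 and 23.3 CPM in ArcSwe microglia, at or above the endothelial level of the same mouse. The other 7 genes had means of 0.460 to 6.51 CPM there. In lymphocytes of ArcSwe replicate 3, *Atp13a5* had 44 UMIs where the summed pericyte markers were at 590 CPM, against 10.2 to 28.7 CPM in the other 5 mice.

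Within endothelial cells *Kcnj2* differed between clusters. It was at 29.3 CPM ± 4.6 (SD, n = 6) in the cluster led by *Vegfc*, *Gkn3* and *Alpl*, at 20.8 CPM ± 7.7 in that led by *Mgp* and *Fbln5* and at 17.6 CPM ± 2.3 in that led by *Cdh13* and *S100a6*. *Vegfc*, *Gkn3*, *Mgp* and *Fbln5* are known genes of arterial endothelium. The lowest levels were 4.23 CPM ± 2.30 in the cluster led by *Icam1* and *Car4* and 2.65 CPM ± 2.91 in that led by *Il1r1* and *Adgrg6*. Between them, 5 clusters lay within 9.54 to 11.7 CPM and did not differ beyond their spread, and the fenestrated cells were at 4.89 CPM ± 4.56. The 3 highest clusters were above those 5 in their means, and the lowest mouse of the first (23.0 CPM) was above the highest of the 5 (19.8 CPM). As the clusters were made from these cells, this is a description.

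**Figure D4:**
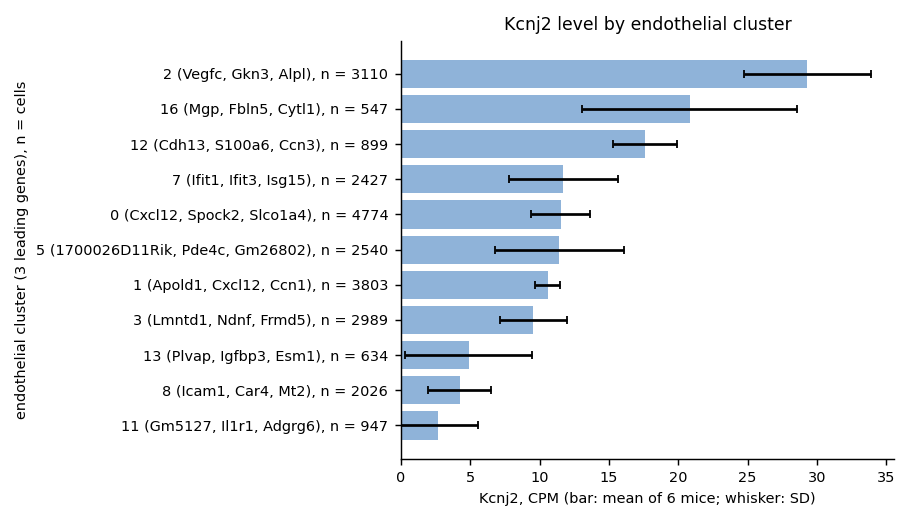
Mean *Kcnj2* level (CPM, x axis from 0) in 11 endothelial clusters with the SD over 6 mice (whiskers), each cluster given with its 3 leading genes and its number of cells. Cluster 2, led by *Vegfc*, stands at 29.3 CPM and cluster 11 at 2.65 CPM, and cluster 13 holds the fenestrated cells.

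Whether the ArcSwe genotype altered these genes was asked in each class with 3 against 3 mice. In pericytes 5 of the 9 genes had enough counts to be tested, and none passed, as was the case for all 1901 genes tested (0%, edgeR; 51 at an unadjusted p under 0.05, and 0 by DESeq2). The log2 fold changes of ArcSwe over WT were 0.01 (95% confidence interval −0.52 to 0.54) for *Kcnj8*, −0.24 (−0.72 to 0.23) for *Abcc9* and −0.15 (−0.63 to 0.33) for *Atp13a5*. They were −0.37 (−0.94 to 0.20) for *Ano1* and −0.01 (−0.59 to 0.57) for *Cacna1c*. A change of 2-fold lay outside each of these intervals, but 17 to 171 cells a mouse stood behind the values. The summed microglial markers of pericytes ran from 204 to 753 CPM in WT and 318 to 1090 CPM in ArcSwe mice, and were 12690 to 20195 CPM in microglia over all mice.

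In SMC 8 of the 9 genes were tested, and 0 of 10271 genes passed (0%, edgeR; 425 at an unadjusted p under 0.05, and 1 by DESeq2). *Kcnma1* (−0.21, 95% confidence interval −0.58 to 0.15), *Kcnab1* (−0.01, −0.54 to 0.51), *Cacna1c* (−0.11, −0.56 to 0.34), *Ano1* (0.03, −0.27 to 0.33) and *Ryr2* (0.03, −0.32 to 0.38) did not pass, nor did *Atp13a5* (0.39, −0.15 to 0.92) and *Abcc9* (0.93, −0.43 to 2.30). *Kcnj8* had a log2 fold change of 2.35 (0.43 to 4.28), with an unadjusted p of 0.021 and an adjusted p of 1.0 (edgeR). It was called when every gene with 1 UMI or more was kept (2.34, adjusted p = 1.0e-07, edgeR), a setting that gave 71 calls in SMC. Its 2 highest mice were ArcSwe replicates 1 and 2, and its lowest was ArcSwe replicate 3, so the genotypes overlapped.

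In endothelial cells 6 of the 9 genes were tested and 0 of 13388 genes passed (0%, edgeR; 590 at an unadjusted p under 0.05, and 11 by DESeq2). *Kcnj2*, the best counted of them with 1250 UMIs, had a log2 fold change of 0.04 (95% confidence interval −0.26 to 0.33). The other channel genes of the lists gave 0 calls among 31, 91 and 112 tested in pericytes, SMC and endothelial cells (edgeR; 3, 6 and 8 at an unadjusted p under 0.05). The share of pericytes among the pericytes and SMC of a mouse was 7.30% ± 3.15 in WT and 10.2% ± 5.0 in ArcSwe mice (SD, n = 3; p = 0.5, exact two-sided permutation test, which cannot go below 0.1). The difference of 2.91 percentage points was 0.139 without ArcSwe replicate 3, 5.00 without ArcSwe replicate 1, 4.71 without WT replicate 3 and 1.82 without WT replicate 2.

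**Figure D5:**
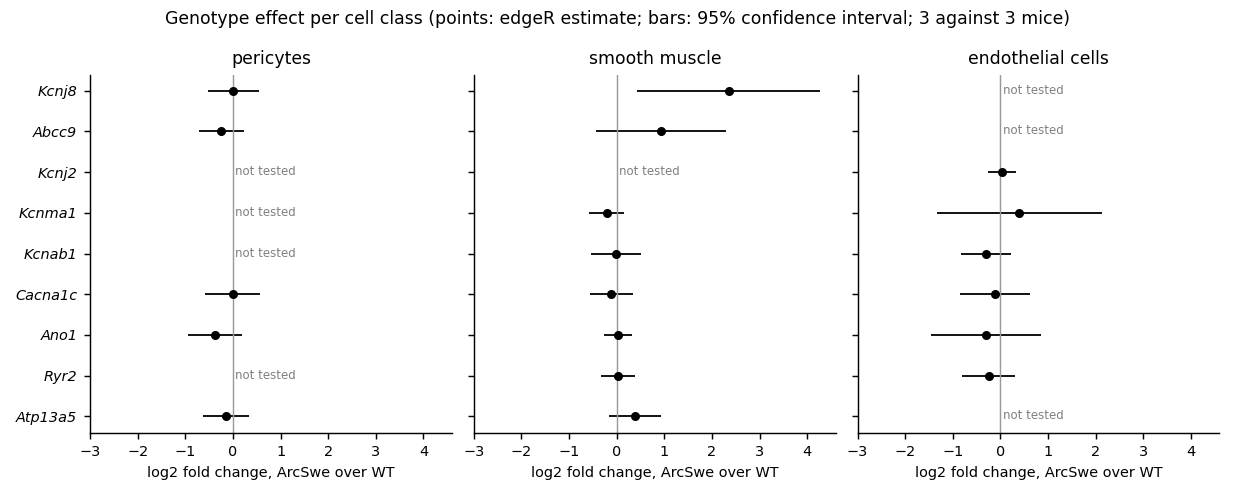
Log2 fold change of ArcSwe over WT (x axis) with 95% confidence intervals for the 9 genes in pericytes, SMC and endothelial cells, 3 against 3 mice. The interval holds 0 for every gene tested except *Kcnj8* in SMC (0.43 to 4.28), which did not pass after adjustment but did when every gene with 1 UMI or more was kept.

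*Kcnj8* was the 1 gene of the 8 tested whose genotype effect was called different between pericytes and SMC. The effect in pericytes minus that in SMC was −2.04 on the log2 scale (SE 0.37, adjusted p = 0.00011, edgeR), 1 of 3 calls among 9247 genes (0.0324%). The other calls were *Dcn* and *Car4*. The log2 ratio of pericytes to SMC (CPM + 1) was 8.52, 7.44 and 8.52 in WT and 5.79, 5.16 and 9.10 in ArcSwe mice, so ArcSwe replicate 3 stood with the WT mice. Most of the SMC counts behind it came from the subcluster marked by *Steap4*, which held 8, 8 and 3 *Kcnj8* UMIs in 9, 6 and 22 cells of the WT mice and 56, 44 and 0 UMIs in 11, 8 and 12 cells of the ArcSwe mice. Without that subcluster the difference was −0.32 and no longer called (adjusted p = 1.0). It held 90.8% of the SMC *Kcnj8* UMIs and was singled out after its values had been seen. With so few counts left, that fit cannot decide whether the genotype effects differ. It was also not called by DESeq2 (−1.86, adjusted p = 1.0), nor without WT replicate 1 (−1.85), WT replicate 3 (−1.70), ArcSwe replicate 1 (−1.65) or ArcSwe replicate 2 (−1.45), with adjusted p of 0.097 to 0.29 (edgeR). *Abcc9* moved the same way (−1.01, SE 0.31, adjusted p = 0.83) and passed without ArcSwe replicate 3 (−1.88, adjusted p = 0.00012, edgeR).

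The genes most like each of the 9 were sought by Pearson's r of log2(CPM + 1) over 40 sums of a mouse and class in 7 classes, among 11942 genes. The sums share libraries and classes, so r is given as a description. *Kcnj8* was closest to *Ano4* (r = 0.94) and *Abcc9* (r = 0.93), and *Abcc9* to *Grm7* and *Rem1* (both r = 0.96). *Slc6a20a* was close to *Atp13a5* (r = 0.98). *Cacna1c* lay nearest to *Rgs4* and *Gprc5c* (both r = 0.99), and *Ano1* to *Carmn* and *Arhgef17* (both r = 0.99). *Kcnab1* lay nearest to *Aoc3* (r = 0.96) and *Pln* (r = 0.95). The values were lower for *Ryr2* (*Ptgir*, r = 0.88; *Gm3646*, r = 0.88), for *Kcnma1* (*Errfi1* and *Gm37800*, both r = 0.87) and for *Kcnj2* (*Ric3* and *Plxna4os1*, both r = 0.80).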

How the data were processed

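Brain microvessels of 6 mice (3 WT and 3 ArcSwe) were isolated with beads against CD31 and profiled by 3′ droplet sequencing, 1 library a mouse. The authors aligned and counted reads with Cell Ranger 7.0.0 on mm10, to which *Clec7a* and human NOTCH3 had been added per the study's methods, and deposited filtered matrices of raw UMI counts, 1 per library. Whether intronic reads were counted, and the strain background of the transgene, were not given in the sources used here.

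Cells with 500 to 4500 genes and up to 10% mitochondrial UMIs were kept. No doublet caller was run, and clusters with markers of more than 1 type were left out as mixed. Endothelial cells with microglial UMIs (5553 cells) were also left out. Log-normalised counts of 2000 variable genes were reduced to 30 principal components (20 for mural cells), joined over 20 neighbours and clustered with the Leiden method at resolution 1. Clusters were named from markers seen in 25% of their cells or more, and the classes were rebuilt here, so names may differ from the study's. UMIs were summed per mouse and class. Ribosomal, mitochondrial, pseudogene and Rik genes were removed (2998, leaving 29289). Sums were tested with edgeR's quasi-likelihood test after filterByExpr and TMM scaling, with Benjamini-Hochberg adjusted p under 0.05 as a call. Comparisons of classes had mouse as a block, those of genotypes had genotype only, and the difference of genotype effects between classes was an interaction term. Levels are CPM of the sums without TMM scaling, whereas log2 fold changes use it, with genes at 0 UMIs given as bounds against 3 counts over the class. Beside the 9 genes, up to 3 genes of each role list were named, those with the largest change among the called genes that moved one way in all 6 mice. Some genes that these rules select are not reported here.

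The 9 genes, the lists and the rule for naming clusters were chosen with earlier results of these data known. The fits were tested on simulated data. Alternatives were DESeq2, other filters and thinning, other cell filters and clusterings, cells with RNA of other types left out, blocks, and leaving out each mouse. Mice are the replicates, and 3′ counts do not separate isoforms. Python 3.11.15 (numpy 2.4.6, scipy 1.17.1, scikit-learn 1.9.0, leidenalg 0.10.2) and R 4.3.3 (edgeR 4.0.16, DESeq2 1.42.0) were used.

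Replicate numbers were shared between genotypes, but the labels tie no WT mouse to an ArcSwe mouse, and the numbers were not used as pairs.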

Additional observations from a re-analysis of the deposited data

Results flagged for a closer look

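The level of *Kcnab1* in the pericytes of ArcSwe replicate 2 was 53.0 CPM, far from the other 5 mice at 0 to 15.4 CPM, and rests on 3 UMIs from 17 cells. The level of *Kcnma1* in the SMC of WT replicate 3 was 551 CPM, against 308 to 375 CPM in the other 5 mice, and in that library genes longer than 100 kb took the largest share of SMC UMIs. In each case the gap to the nearest mouse, divided by the range of the 6, exceeded Dixon's critical value for 6 samples. These were 2 of 24 sets of 6 mice, of which chance would mark about 1 in 20.

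The effect of genotype on *Kcnj8* differed between pericytes and SMC by −2.04 on the log2 scale in the edgeR interaction test. The pericyte effect was 0.01 and the SMC effect 2.35, and the call was lost without the SMC subcluster marked by *Steap4*, with DESeq2, and without any 1 of 4 of the 6 mice. That subcluster held 90.8% of the SMC *Kcnj8* UMIs, so the fit without it had few counts and cannot decide the question.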

How the results depend on the processing

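Of 575 values of the 9 genes under other settings, 529 kept their direction and their side of the threshold, 34 turned direction, 6 lost a call and 6 gained one; of 342 values of the list genes, 341 kept both and *Kcnmb1* lost its call. None of the 34 was called in either setting. Genes called between pericytes and SMC fell from 3198 to 1786 when cells with RNA of other types were left out, which left 7 to 55 pericytes a mouse. They fell to 1155 when SMC sums were thinned to the pericyte totals. That alternative was chosen after seeing the data, as were those on intermediate mural cells and on the SMC subcluster. The count ran from 2678 to 3309 as each mouse was left out. Keeping every gene with 1 UMI or more gave 4 genotype calls in pericytes and 71 in SMC, *Kcnj8* among the latter (2.34, adjusted p = 1.0e-07). DESeq2 gave 1 genotype call in SMC, 11 in endothelial cells and 0 for the difference of genotype effects, which ran from 0 to 6 calls (3 with all mice) as each mouse was left out: 6 without WT replicate 2 or ArcSwe replicate 1 and 0 without WT replicate 3.

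Values that turned direction were smaller than their SE with all mice. In pericytes, the genotype effect of *Kcnj8* became −0.089 with a stricter cell filter and −0.0098 at the higher clustering resolution, and that of *Cacna1c* became 0.0087 with DESeq2, 0.0027 with every gene, 0.15 with the stricter filter and 0.086 with cells bearing other RNA left out. In SMC the same exclusion gave 0.014 for *Kcnab1* and −0.16 for *Ryr2*, and counting intermediate cells as SMC gave −0.0078 for *Ryr2*. *Kcnma1* in pericytes against endothelial cells became 1.03 with DESeq2 and ran from −5.86 to 0.72 as each mouse was left out. Over the same omissions genotype effects ran from −0.14 to 0.31 for *Kcnj8* and −0.22 to 0.39 for *Cacna1c* in pericytes; from −0.20 to 0.37 for *Kcnab1*, −0.26 to 0.18 for *Cacna1c*, −0.11 to 0.11 for *Ano1* and −0.11 to 0.21 for *Ryr2* in SMC; and from −0.049 to 0.13 for *Kcnj2*, −0.12 to 1.07 for *Kcnma1*, −0.33 to 0.18 for *Cacna1c* and −0.63 to 0.18 for *Ano1* in endothelial cells. The difference of genotype effects of *Cacna1c* ran from −0.068 to 0.34. The causes were not tested.

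With the replicate number as a block the genotype comparisons gave 0 calls in pericytes, SMC and endothelial cells, as without it, with *Cacna1c* at 0.028 in pericytes and *Kcnab1* at 0.048 in SMC. The deviations of same-numbered mice correlated at 0.085 to 0.263 in SMC, 0.081 to 0.364 in endothelial cells and −0.18 to 0.027 in pericytes, against −0.173 to 0.0854, −0.325 to 0.272 and −0.191 to 0.209 for mice of different numbers. Since not every same-numbered pair was over 0.1 in any of these classes and no label ties the mice, the numbers were not taken as pairs. Not every mouse correlated best with its own number in any class. Without mouse as a block 3212 genes were called between pericytes and SMC. Pericyte depth, 779737 UMIs in all, limits the genotype comparison to 1901 genes and 5 of the 9, and 0 UMIs in a pericyte sum over all mice allow a level of up to 3.85 CPM.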
